A study of Mus musculus with 2 samples.

Results

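The 8 genes described here, Srebf1, Srebf2, Insig1, Acly, Acaca, Fasn, Scd1 and Scd2, supply and control the fatty acids and sterols that lung cells build into membranes and surfactant. They were chosen by name, and all 8 were found by symbol among the 21938 protein-coding genes of the GENCODE M21 mouse annotation. DNase-seq, the assay used, maps accessible chromatin: DNase I cuts open DNA in nuclei and the cut ends are sequenced. The lungs came from male mice aged 14 days of the strain B6CASTF1/J, a hybrid of C57BL/6J and CAST/EiJ, with no treatment named. The 2 libraries formed 1 group. Replicate 2 is labelled as a pool of 3 males, and the labels of replicate 1 name no pool. The labels give both the same donor record and do not say whether any animal went into both, so overlaps between them may measure only technical spread. With 1 group, no contrast, p-value or effect of a condition is given, and each value below stands for 1 library.

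Srebf1 and Srebf2 encode the sterol regulatory element-binding proteins, transcription factors made as membrane-bound precursors. When sterols are plentiful, the protein encoded by Insig1 holds the precursors in the endoplasmic reticulum. When sterols fall, the precursors are cut and enter the nucleus, where they bind sterol elements beside NF-Y, which reads CCAAT, and SP/KLF factors, which read GC-rich boxes. Acly makes acetyl-CoA from citrate, Acaca carboxylates it to malonyl-CoA, Fasn joins these units into palmitate, and Scd1 and Scd2 place a double bond into saturated fatty acids. Alveolar type 2 cells use palmitate to make the phosphatidylcholine of surfactant, the film that keeps air spaces from collapsing.

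The files listed 94786 peaks, or accessible sites, in replicate 1 and 77403 in replicate 2. They also listed 326313 and 252174 footprints, short stretches within open DNA that were shielded from cutting. A promoter peak lay within 1 kb of any annotated transcript start of its gene. Other peaks lay elsewhere in the gene body or in the 50 kb on either side. Peak scores are the authors' own and were used only to rank peaks within a library, so a percentile is the share of that library's peaks with a lower score, ties split evenly. Read depth is unknown. Since lung tissue was assayed whole, fewer cells of a type and less open chromatin per cell cannot be told apart. Of the marker genes listed for each cell type, a promoter peak was found for 8 of 9 of alveolar type 2 cells in replicate 1 and 7 of 9 in replicate 2, for 5 and 4 of 5 of alveolar type 1 cells, for 3 and 2 of 3 of lipofibroblasts, and for 4 of 4 of endothelium in both. It was found for 0 of 3 of hepatocytes in both libraries and for 2 of 7 of adipocytes in both, with Adipoq, Cidec, Fabp4, Lep and Ucp1 lacking one. Of the lung lists, Lamp3 lacked one in both libraries, and Sftpd, Aqp5 and Fgf10 lacked one in replicate 2. Over all protein-coding genes a promoter peak was found for 66.6% in replicate 1 and 64.1% in replicate 2. The part of any single cell type in the values below was not tested.

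The strongest promoter site of each gene is printed first, because the motif counts described below refer to windows at these sites. For 7 genes it was the same site in both libraries. For Scd2 the printed site was the strongest in replicate 1, and the strongest in replicate 2 (chr19:44293861-44294100) lies wholly in an annotated untranslated region and is not printed. Each line holds the bases shared by the peaks of both libraries, outside annotated untranslated regions, on the gene's strand from 5′ to 3′ in mm10 (GRCm38 reference, C57BL/6J, as held by RefSeq). Capitals mark bases that lay under a footprint in both libraries. CAST/EiJ alleles were not analysed here.
Srebf1 strongest promoter site, chr11:60210466-60210600, minus strand: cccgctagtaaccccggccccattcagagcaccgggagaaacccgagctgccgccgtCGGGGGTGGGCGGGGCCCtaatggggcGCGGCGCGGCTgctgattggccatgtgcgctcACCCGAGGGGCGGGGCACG
Srebf2 strongest promoter site, chr15:82147001-82147180, plus strand: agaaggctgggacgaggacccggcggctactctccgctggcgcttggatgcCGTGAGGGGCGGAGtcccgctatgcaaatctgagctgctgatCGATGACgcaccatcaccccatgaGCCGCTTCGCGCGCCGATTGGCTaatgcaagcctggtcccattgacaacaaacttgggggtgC
Insig1 strongest promoter site, chr5:28071121-28071362, plus strand: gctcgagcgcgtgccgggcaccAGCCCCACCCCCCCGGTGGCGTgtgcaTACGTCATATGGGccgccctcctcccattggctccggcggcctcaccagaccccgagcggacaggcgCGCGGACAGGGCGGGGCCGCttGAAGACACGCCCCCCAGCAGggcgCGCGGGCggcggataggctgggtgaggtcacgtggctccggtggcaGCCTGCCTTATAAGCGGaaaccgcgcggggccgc
Acly strongest promoter site, chr11:100528001-100528140, minus strand: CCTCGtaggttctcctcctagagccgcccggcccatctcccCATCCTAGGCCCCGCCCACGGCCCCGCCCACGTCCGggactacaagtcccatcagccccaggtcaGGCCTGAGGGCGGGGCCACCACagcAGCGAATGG
Acaca strongest promoter site, chr11:84179421-84179720, plus strand: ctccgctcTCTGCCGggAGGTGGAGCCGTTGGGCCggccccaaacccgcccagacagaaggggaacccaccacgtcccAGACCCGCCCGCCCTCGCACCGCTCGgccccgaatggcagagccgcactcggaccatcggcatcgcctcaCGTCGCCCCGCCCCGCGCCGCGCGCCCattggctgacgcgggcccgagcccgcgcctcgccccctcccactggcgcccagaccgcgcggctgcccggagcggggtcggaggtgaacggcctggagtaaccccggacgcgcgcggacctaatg
Fasn strongest promoter site, chr11:120824548-120824740, minus strand: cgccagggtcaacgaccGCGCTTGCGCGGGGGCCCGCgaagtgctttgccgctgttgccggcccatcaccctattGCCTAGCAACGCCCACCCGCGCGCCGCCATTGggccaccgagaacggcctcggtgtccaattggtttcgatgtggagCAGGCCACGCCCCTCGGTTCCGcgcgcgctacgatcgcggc
Scd1 strongest promoter site, chr19:44408261-44408500, minus strand: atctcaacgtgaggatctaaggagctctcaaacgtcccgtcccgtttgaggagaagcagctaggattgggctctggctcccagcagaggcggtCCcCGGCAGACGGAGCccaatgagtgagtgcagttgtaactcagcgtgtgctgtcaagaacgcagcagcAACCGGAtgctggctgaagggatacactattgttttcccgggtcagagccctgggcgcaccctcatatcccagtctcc
Scd2 strongest promoter site in replicate 1, chr19:44294841-44295000, plus strand: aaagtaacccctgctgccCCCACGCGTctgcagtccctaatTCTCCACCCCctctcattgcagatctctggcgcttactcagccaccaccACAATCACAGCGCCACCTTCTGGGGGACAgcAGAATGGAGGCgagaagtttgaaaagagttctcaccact

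All 8 genes had a promoter peak in each library. Over all protein-coding genes this held for 66.6% in replicate 1 and 64.1% in replicate 2, and for 63.6% in both libraries at once. The 8 genes had 22 promoter peaks in replicate 1 and 22 in replicate 2, and 21 of the 22 in each overlapped a peak of the other library (95.5%). Over the promoter peaks of all genes that share was 79.2% of the peaks of replicate 1 and 93.6% of those of replicate 2. The 2 promoter peaks without a partner were low in rank: one 482 bp downstream of a Fasn start at 120823780, at percentile 26.5 in replicate 1, and one at an inner start of Srebf2, at percentile 40.2 in replicate 2. The authors' FDR track, which holds bases at 0.05 or below, listed every base of every promoter peak of the 8 genes, and the median peak of each library likewise had every base listed.

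The strongest promoter peak of the 8 genes had a median percentile of 95.9 in replicate 1 and 95.7 in replicate 2. For all genes with a promoter peak the median was 89.9 in replicate 1 and 89.7 in replicate 2. Among the 8, Acly ranked highest at 98.9 in replicate 1 and 98.7 in replicate 2. Insig1 followed at 98.3 in both libraries, and Srebf2 stood at 97.8 and 98.4, so the order of Insig1 and Srebf2 differed between the libraries. Acaca stood at 95.9 and 96.3, Fasn at 95.9 and 95.1, and Srebf1 at 95.3 and 94.9. These 3 were close in rank in each library. Scd2 had 94.3 in replicate 1 and 90.6 in replicate 2, and Scd1 had 70.4 and 72.6. With every annotated start counted, Scd1 was thus the one gene of the 8 below the median of all genes. With the outermost start alone, Srebf1 at 80.6 and 78.5 and Acaca at 79.2 and 71 also lay below the all-gene median, then 89.8 in both libraries, and so did Scd2 in replicate 1 at 87.5. Scd2 also lay below it in replicate 1 with a window of 500 bp. Among the strongest promoter peaks of all genes Scd1 stood at percentile 21.7 in replicate 1 and 23.2 in replicate 2, where Acly stood at 92.3 and 92.2.

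**Figure D1:**
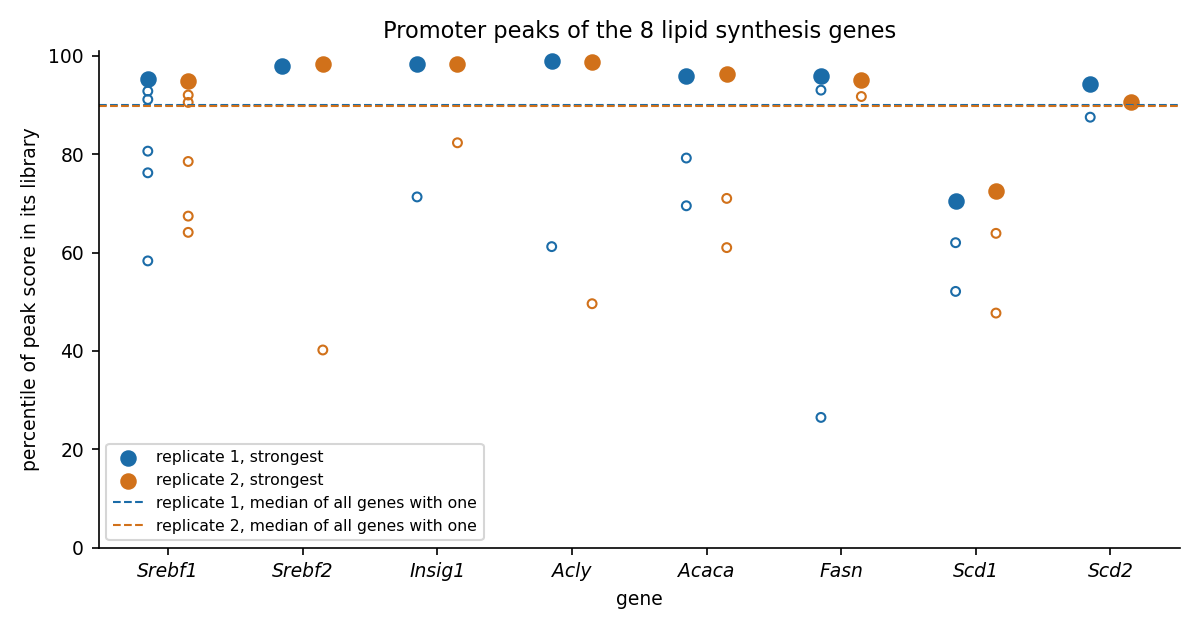
Percentile of the peak score within its library (y axis) for every promoter peak of the 8 genes (x axis), with the strongest peak filled, the others open, and dashed lines at the median of the strongest promoter peak over all genes with one. In both libraries 7 genes lie above the lines, and Scd1 lies below them at 70.4 in replicate 1 and 72.6 in replicate 2.

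Srebf1 (chr11:60199089-60222581, minus strand, 23.5 kb) had 12 annotated starts and 6 promoter peaks in each library. Its outermost start had a peak 240 bp upstream, at percentile 80.6 in replicate 1 and 78.5 in replicate 2. The start 1.98 kb further in had a peak over it, at 92.8 and 92, and a neighbour just downstream in the intron, at 91.1 and 90.5. The start 12.1 kb in had the strongest peak, at 95.3 and 94.9. The first of these inner starts lies at that of the longer RefSeq isoform, SREBP-1a, and the second that of SREBP-1c, the isoform known for control of fatty acid synthesis in liver. Both isoform starts were therefore open in both libraries, and the second ranked above the first in each. The start 15.4 kb in and the 5 starts from 18.7 kb inward had no peak within 1 kb in either library.

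The peak at the outermost start and the peak over the SREBP-1a start are printed because they show what the other accessible Srebf1 starts hold.
Srebf1 site at the outermost start, chr11:60222821-60223000, minus strand: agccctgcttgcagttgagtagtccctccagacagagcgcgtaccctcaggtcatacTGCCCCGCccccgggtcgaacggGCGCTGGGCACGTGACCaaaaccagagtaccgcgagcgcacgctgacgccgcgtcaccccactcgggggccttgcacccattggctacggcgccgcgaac
Srebf1 site over a start, chr11:60220605-60220720, minus strand: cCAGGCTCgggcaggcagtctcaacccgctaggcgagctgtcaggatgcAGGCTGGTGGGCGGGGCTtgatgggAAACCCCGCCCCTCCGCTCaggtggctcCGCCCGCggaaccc
The outermost site held the full sterol element TCACNCCAC as tcaccccac, 286 bp upstream of the start, which a footprint covered in part in replicate 1 and not in replicate 2. It also held the E-box CACGTG, 331 bp upstream, inside a footprint in both libraries. The site over the SREBP-1a start held footprints of both libraries on its GC boxes and no CCAAT. Another peak of high rank lay in the annotated untranslated region at the far end of Srebf1 (chr11:60199721-60199920 in replicate 1), at percentile 96.1 in replicate 1 and 91.4 in replicate 2, within 1 kb of the start of the microRNA gene Mir6921. In replicate 1 it ranked above every promoter peak of Srebf1, and in replicate 2 it ranked below the SREBP-1c and SREBP-1a peaks.

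**Figure D2:**
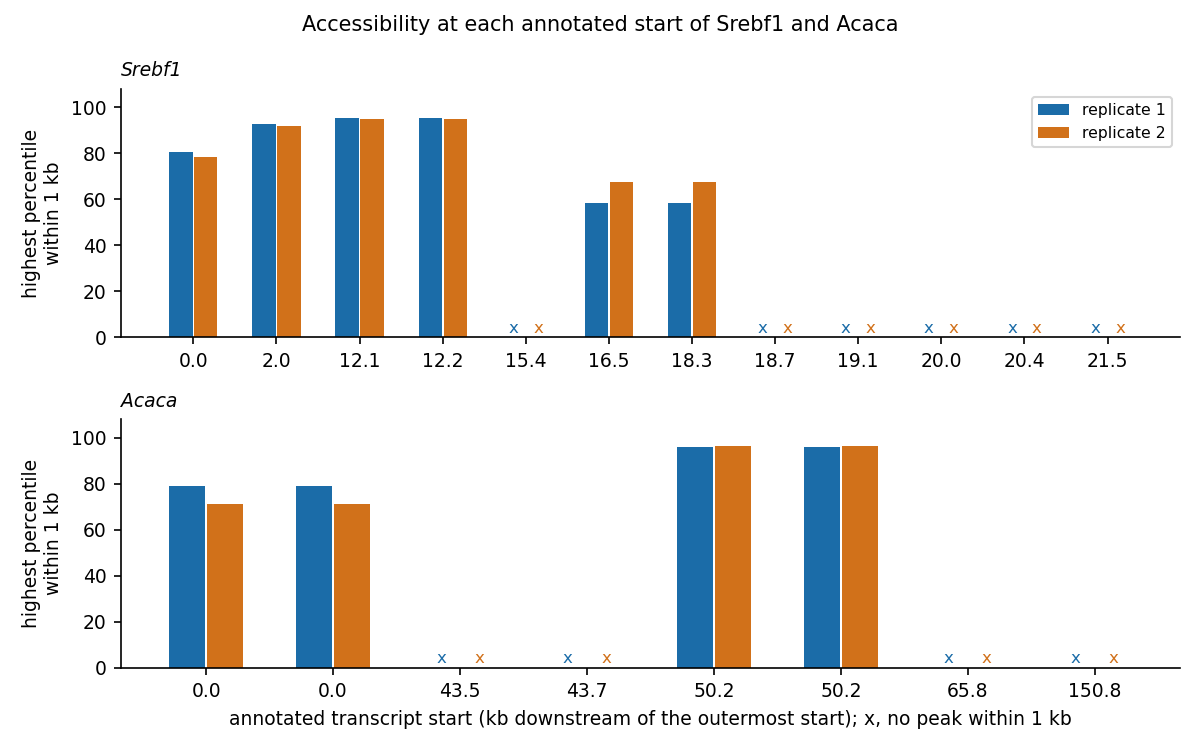
Highest percentile of any peak within 1 kb of each annotated transcript start (y axis) of Srebf1 and Acaca, with starts ordered along the x axis by distance in kb from the outermost one and an x where no peak lay within 1 kb. The highest bars stand at the inner starts, at 95.3 and 94.9 for Srebf1 and 95.9 and 96.3 for Acaca, in replicate 1 and replicate 2.

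Srebf2 (chr15:82147181-82205379, plus strand, 58.2 kb), which mainly drives cholesterol synthesis genes, had 1 promoter peak in replicate 1 and 2 in replicate 2. The peak found in both covered its outermost start and held 6 footprints in replicate 1 and 5 in replicate 2. In the printed sequence, a footprint of both libraries covered a CCAAT 47 bp upstream of the start, read on the other strand as attgg. The short sterol element TCACNCC lay 74 bp upstream, as tcacccc, outside the footprints of both libraries. The start furthest inside the gene, at 82194972, had no peak within 1 kb.

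Insig1 (chr5:28071363-28078662, plus strand, 7.3 kb), itself a target of the factors it restrains, had 2 promoter peaks in each library. The stronger one covered the start, with its centre 123 bp upstream in replicate 1 and 113 bp in replicate 2. It stood at 98.3 in both libraries and held 6 footprints in each. It also lay within 1 kb of a start of the noncoding gene Gm26608. The second peak, centred 687 bp inside the gene in replicate 1 and 677 bp in replicate 2, stood at 71.3 in replicate 1 and 82.3 in replicate 2, and held 0 footprints in replicate 1 and 1 in replicate 2. The stronger site held an E-box 52 bp upstream of the start and a CCAAT 167 bp upstream, neither inside a footprint in either library.

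Acly (chr11:100476353-100528000, minus strand, 51.6 kb) had 2 promoter peaks in each library. The peak over its start, at 98.9 and 98.7, held 5 footprints in replicate 1 and 4 in replicate 2. The other, centred 589 and 599 bp downstream of the next start, stood at 61.2 and 49.6 and held 0 footprints in either. In the printed sequence, 72 of 140 bases lay under footprints of both libraries, and 4 of the 5 matches of the GC box GGGCGG in the whole peak lay inside a footprint in each library. The 4 inner starts of Acly had no peak within 1 kb in either library.

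Acaca (chr11:84129672-84401651, plus strand, 272.0 kb), the longest of the 8 genes, had 3 promoter peaks in each library. Its outermost start shared a peak with Tada2a, a gene read in the opposite direction, at 79.2 in replicate 1 and 71 in replicate 2. The start 50.2 kb in had the stronger peak upstream of it, at 95.9 and 96.3, and a weaker one downstream, at 69.5 and 61. The starts at 84173122, 84173354, 84195438 and 84280455 had no peak within 1 kb in either library. With the outermost start alone, the strongest promoter peak of Acaca would stand at 75.1, the mean over both libraries.

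Fasn (chr11:120805846-120824547, minus strand, 18.7 kb) had 3 promoter peaks in replicate 1 and 2 in replicate 2. The peak over its outermost start stood at 95.9 and 95.1, and the next, over the start 0.452 kb inward, at 93 and 91.7. The inner one held 4 footprints in replicate 1 and 7 in replicate 2, and the outer one 3 in each. The full sterol element occurred in the inner peak, as tcaccccac, 160 bp upstream of the annotated start at 120824095. No footprint covered it in replicate 1 and one covered part of it in replicate 2. The outer peak held CCAAT 59, 62 and 90 bp upstream of the outermost start. The match at 90 bp lay partly inside a footprint in replicate 1 and wholly inside one in replicate 2, and the other matches lay outside.

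Scd1 (chr19:44394455-44407879, minus strand, 13.4 kb), the main stearoyl-CoA desaturase of liver and fat, had 3 promoter peaks in each library. The peak centred 501 bp upstream in replicate 1 and 491 bp in replicate 2 stood at 70.4 and 72.6, the peak over the start at 62 and 63.9, and the one inside the gene at 52.1 and 47.7. The order of the 3 was the same in both libraries. Together they held 11 footprints in replicate 1 and 10 in replicate 2. The peak over the outermost start is printed because transcription is annotated to begin there.
Scd1 site over a start, chr19:44407880-44408020, minus strand: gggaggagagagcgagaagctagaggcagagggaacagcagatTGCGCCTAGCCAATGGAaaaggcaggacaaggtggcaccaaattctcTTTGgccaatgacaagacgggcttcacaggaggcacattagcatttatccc
It held CCAAT 46 and 89 bp upstream of the start, of which the one at 89 bp lay inside a footprint in both libraries.

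Scd2 (chr19:44293674-44306864, plus strand, 13.2 kb), the desaturase of brain and of young tissues, had 2 promoter peaks in each library. The peak over its second start stood at 87.5 in replicate 1 and 90.6 in replicate 2. The peak centred in a coding exon 844 bp downstream of that start stood at 94.3 and 90.2, so a different one of the pair was the stronger in each library. The start peaks of Scd1 and Scd2 could be aligned over 204 columns, 145 of them identical (71.1%). The start peak stood at 62 and 63.9 for Scd1 and at 87.5 and 90.6 for Scd2, so the Scd2 peak ranked above in each library. The other desaturase genes of the same cluster, Scd3 and Scd4, had no promoter peak in either library.

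Of the 46 annotated starts of the 8 genes, a peak covered 14 in replicate 1 (30.4%) and 15 in replicate 2 (32.6%), against 33.3% and 31.4% of the starts of all genes. A peak lay within 1 kb of 27 in each library (58.7%), against 55.9% and 53.3%, so both shares were near the background. The median number of annotated starts was 6 for the 8 genes and 3 for all genes, and more starts give a gene more places where a promoter peak can be found. With the outermost start alone, all 8 genes still had a promoter peak in both libraries, as did 58.7% of all genes.

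Beyond promoters, 78 other peaks lay in and around the 8 genes in replicate 1 and 72 in replicate 2. Of these, 57 and 52 were distal, that is over 1 kb from every annotated start of any gene, and 21 and 20 lay at starts of other genes. The median gene among the 8 had 6.79 other peaks per 100 kb in replicate 1 and 6.46 in replicate 2. Genes with a promoter peak had medians of 6.59 and 5.43, and all genes 5.27 and 4.29. Scd2 had the densest surroundings of the 8 at 12.4 and 11.5 peaks per 100 kb, above 86.2% and 89.6% of all genes. Acaca had the sparsest at 1.88 and 1.34, above 23.9% and 23% of all genes. Of the distal peaks of the 8 genes, 43 in replicate 1 (75.4%) and 43 in replicate 2 (82.7%) had a partner in the other library, against 71% and 87.9% of all distal peaks. The 8 genes were thus above that share in replicate 1 and below it in replicate 2. Of the peaks at starts of other genes, 20 of 21 in replicate 1 and 20 of 20 in replicate 2 had one. Over the promoter peaks of all protein-coding genes, a like but not equal set, the shares were 79.2% and 93.6%.

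**Figure D3:**
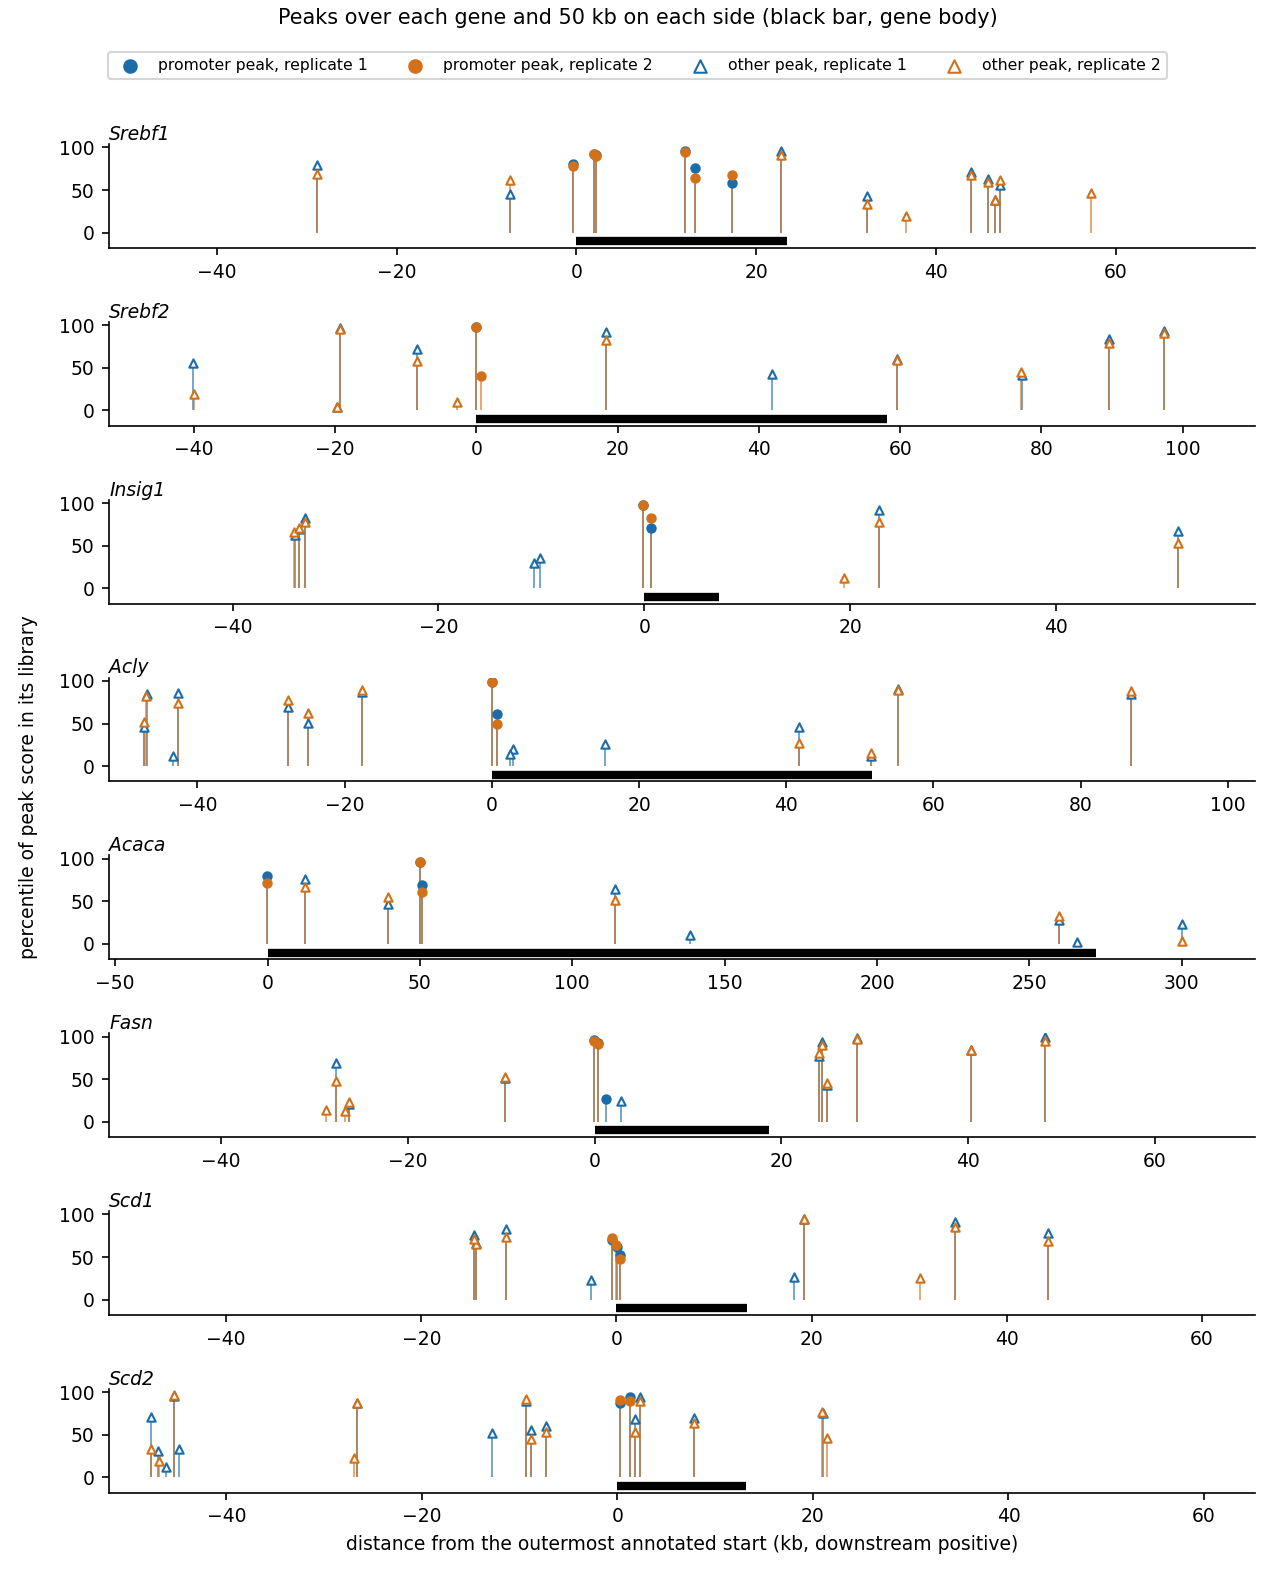
Percentile of each peak (y axis) by distance in kb from the outermost annotated start (x axis, downstream positive) for the 8 genes, with promoter peaks as circles, other peaks as triangles and the gene body as a black bar. Scd1 has promoter peaks no higher than 72.6 and a distal peak at 95.2 in replicate 1 and 94.5 in replicate 2, and Acaca has 7 and 5 other peaks over its long span.

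The desaturases were the genes of the 8 whose distal sites outranked their promoters in both libraries. For Scd1 the strongest distal peak stood at 95.2 in replicate 1 and 94.5 in replicate 2, and its strongest promoter peak at 70.4 and 72.6. For Scd2 the values were 96 and 97 for the distal peak and 94.3 and 90.6 for the promoter peak. Fasn had its distal peak above its promoter peak in replicate 1, at 99 and 95.9, and below it in replicate 2, at 94.4 and 95.1. In the other 5 genes the promoter peak was the stronger in both libraries. So 3 of 8 genes in replicate 1 and 2 of 8 in replicate 2 had a distal peak above every promoter peak, as did 35% and 27.2% of all genes with a promoter peak. The count among the 8 was near that background.

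The strongest distal sites of Scd1 and Scd2 shared a stretch of DNA. The Scd1 site (chr19:44388521-44388720, between genes) stood at 95.2 in replicate 1 and 94.5 in replicate 2. The strongest Scd2 site (chr19:44248161-44248420, 45.4 kb upstream of its outermost start) stood at 96 and 97. They could be aligned over 113 columns, of which 105 were identical (92.9%). Of 990 pairs among 45 promoter and named distal sites of the 8 genes, the 4 with the highest alignment scores all lay within the Scd cluster. This search was added after the sequences had been seen. The Scd1 site, the strongest Scd2 site and one more Scd2 site are printed so that the shared stretch can be read.
Scd1 strongest distal site, chr19:44388521-44388720, minus strand: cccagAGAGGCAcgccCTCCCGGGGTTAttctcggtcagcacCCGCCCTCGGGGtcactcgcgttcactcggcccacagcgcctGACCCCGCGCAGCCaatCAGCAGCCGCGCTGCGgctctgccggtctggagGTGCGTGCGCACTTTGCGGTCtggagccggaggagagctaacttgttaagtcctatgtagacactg
Scd2 strongest distal site, chr19:44248161-44248420, plus strand: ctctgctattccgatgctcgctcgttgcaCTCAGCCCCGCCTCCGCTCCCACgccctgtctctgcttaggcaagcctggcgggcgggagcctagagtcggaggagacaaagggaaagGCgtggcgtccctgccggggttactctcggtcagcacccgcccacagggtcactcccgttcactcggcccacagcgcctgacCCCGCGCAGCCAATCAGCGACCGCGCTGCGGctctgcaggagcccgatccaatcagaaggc
Scd2 lower-ranked named distal site, chr19:44284161-44284460, plus strand: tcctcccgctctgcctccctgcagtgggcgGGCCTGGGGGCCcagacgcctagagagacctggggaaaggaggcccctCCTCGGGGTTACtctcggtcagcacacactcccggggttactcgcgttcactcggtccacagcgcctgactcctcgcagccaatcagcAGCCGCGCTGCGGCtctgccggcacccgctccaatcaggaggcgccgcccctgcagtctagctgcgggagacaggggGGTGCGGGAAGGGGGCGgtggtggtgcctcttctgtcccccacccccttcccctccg
The stretch of 113 bases in the Scd1 site was then searched over the whole reference genome. It occurred in 5 places, itself included and called copies below, under the limits used: at least 2 exact matches of 12 bases, which may overlap, and at least 70% identity over at least 80 columns. A copy too diverged to hold such matches would be missed. All 5 lay on chromosome 19 within 140.4 kb, and all 5 overlapped a peak in both libraries. For the Scd1 copy and those 45.4 and 9.44 kb upstream of Scd2 this overlap was given in advance. They lie in named distal sites, which were picked as peaks found in both libraries. Only for the copies 26.6 kb upstream and 20.9 kb downstream could it have turned out otherwise. Beside the Scd1 copy, the copies 45.4, 26.6 and 9.44 kb upstream of the outermost Scd2 start had 92.9%, 90.1% and 91.2% identity. Their peaks stood at 96, 87.5 and 90.1 in replicate 1 and at 97, 87.9 and 92.5 in replicate 2. The copy 20.9 kb downstream of that start had 82.7% identity, and its peak stood at 75.9 and 76.7. In replicate 2 that peak covered only part of the copy. This copy lay in an intron of the noncoding gene AC123853.1 and within 1 kb of its start. All 5 copies held CCAAT. In replicate 1 it lay wholly inside a footprint in 1 copy, the one 45.4 kb upstream of Scd2, and in replicate 2 in 2 copies, that one and the Scd1 copy. How reads from such similar stretches were assigned is not given in the sources used here, and its part in these ranks was not tested.

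**Figure D4:**
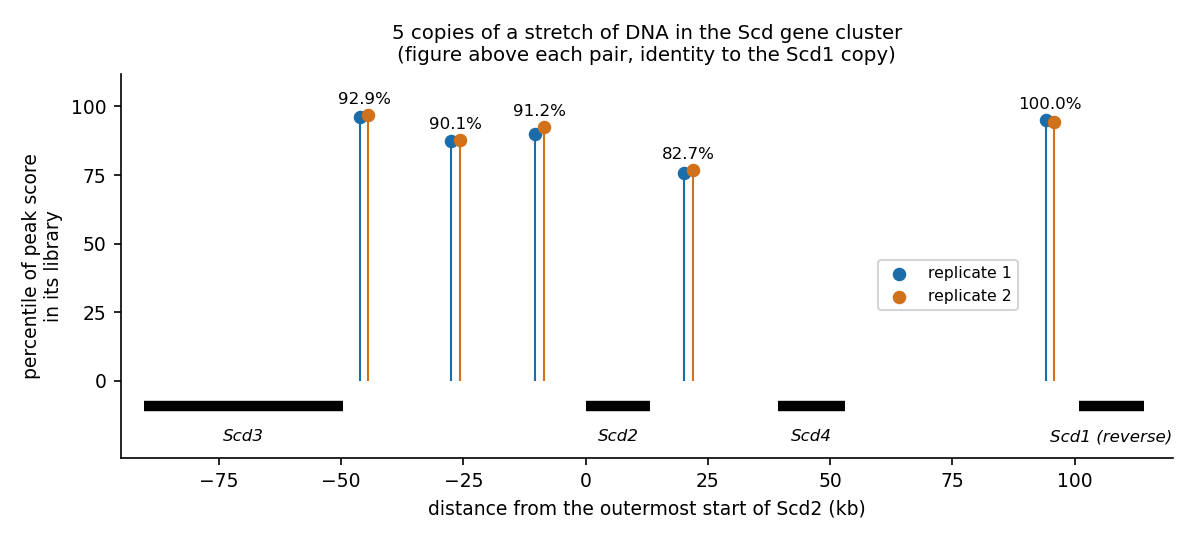
Percentile of the peak over each of the 5 copies of the stretch (y axis) by distance in kb from the outermost start of Scd2 (x axis), with gene bodies as black bars and the identity to the Scd1 copy above each pair of points. All 5 copies overlap a peak in both libraries, which for copies inside named distal sites follows from how those sites were picked. The copy of 82.7% identity has the lowest percentiles, 75.9 in replicate 1 and 76.7 in replicate 2.

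The highest distal sites of Fasn, Srebf2 and Insig1, by the mean percentile of both libraries, held other sequence. At Fasn, the site at chr11:120776181-120776340, between genes, stood at 99 in replicate 1 and 94.4 in replicate 2. In replicate 1 this was above the Fasn promoter, and in replicate 2 it was below it. Srebf2 had its highest in its own intron (chr15:82165401-82165580), at 91.6 and 83.1. Insig1 had its highest by that mean between genes (chr5:28094081-28094220), at 91.8 and 77.5. In replicate 2 another site of Insig1, in an intron of the noncoding gene Gm26608 (chr5:28038261-28038440), ranked just above it at 78.2. These 3 are printed because each holds a core of the sequence read by CTCF, a factor that anchors chromatin loops, under footprints of both libraries.
Fasn strongest distal site, chr11:120776181-120776340, minus strand: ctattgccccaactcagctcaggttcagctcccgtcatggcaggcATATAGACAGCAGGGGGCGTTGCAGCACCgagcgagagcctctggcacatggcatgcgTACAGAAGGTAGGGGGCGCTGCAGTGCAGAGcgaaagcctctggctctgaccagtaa
Srebf2 strongest distal site, chr15:82165401-82165580, plus strand: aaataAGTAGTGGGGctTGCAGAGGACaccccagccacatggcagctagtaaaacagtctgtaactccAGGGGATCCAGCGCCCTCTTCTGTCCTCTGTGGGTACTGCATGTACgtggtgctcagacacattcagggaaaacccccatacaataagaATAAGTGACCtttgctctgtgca
Insig1 highest distal site by mean percentile, chr5:28094081-28094220, plus strand: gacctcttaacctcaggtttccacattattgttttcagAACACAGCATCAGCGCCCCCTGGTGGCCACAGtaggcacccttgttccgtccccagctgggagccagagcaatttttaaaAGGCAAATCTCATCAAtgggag
The core AGNGGGC, on either strand, occurred in the 300 bp around 15 of the 24 named distal sites, 3 for each gene, and in 10 of these 24 sites it lay inside a footprint in both libraries. Over the 3 highest distal sites of every protein-coding gene, chosen in the same way, it occurred in 35.6% and lay inside a footprint in both libraries in 20.8%, against 62.5% and 41.7% of the 24. These letters were chosen after the sequences of these sites had been seen, so a higher share among the 24 could follow from that choice. No enrichment is read from it. In replicate 1 and replicate 2, AGNGGGC occurred around 28.7% and 28.4% of all distal peaks. It occurred around 36% and 36.7% of peaks at gene starts, so it is not particular to distal sites. The letters CNAGNNGGC, among the 14 motifs below, occurred in 26.9% and 27.5% of distal windows. They are not met by the Fasn site at chr11:120776181-120776340, where the core occurs as agggggc on the printed strand. By mean percentile, the highest distal sites of the remaining genes ranked lower. Acly had its at 85.6 and 74.5, in an intron of Ttc25, also with the core AGNGGGC inside a footprint in both libraries. In replicate 2 another site in that intron stood above it at 77.2. The values were 79.7 and 68.3 for Srebf1, in an intron of Tom1l2, and 76.1 and 67.3 for Acaca, in its own intron.

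Footprints inside the promoter peaks of the 8 genes numbered 86 in replicate 1 and 69 in replicate 2, or 1.6 and 1.31 per 100 bp. Over the promoter peaks of all genes the values were 1.25 and 1.32, so that the 8 genes were above in replicate 1 and about level in replicate 2. Distal peaks of the 8 genes held 1.59 footprints per 100 bp in replicate 1 and 1.31 in replicate 2, against 1.34 and 1.23 over all distal peaks. In the 21 promoter sites found in both libraries, 73.7% of the footprints of replicate 1 met one of replicate 2 and 81.8% of those of replicate 2 met one of replicate 1. Over the shared promoter sites of all genes the shares were 70.3% and 73.4%. In 43 distal sites found in both, they were 68% and 76.4%, against 61.1% and 69.8% over all shared distal sites.

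Of 14 motifs searched on both strands in the 300 bp around the strongest promoter peak, the NF-Y box CCAAT differed most between the 8 genes and the background. It occurred at 7 of the 8 genes in replicate 1 and 8 of 8 in replicate 2, against 37.1% and 38.4% of all genes with a promoter peak. The gene without it in replicate 1 was Scd2, for which that library's strongest peak was the one in the coding exon. In the narrower windows also tried it again occurred at 7 and 8 genes, against 27.5% and 28.9%. The matches lay 36 bp upstream of the nearest start for Srebf1, 47 bp for Srebf2, 167 bp for Insig1 and 235 bp for Acaca. Acly had its match 37 bp downstream of the start, and Scd1 had matches 512 and 557 bp upstream. The start peak of Scd2 held matches 80 and 123 bp upstream.

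Few of these CCAAT matches lay inside footprints. In the strongest promoter peaks, 2 of 10 matches of the 8 genes were wholly inside a footprint in replicate 1 (20%) and 2 of 12 in replicate 2 (16.7%). Over all genes the shares were 22.5% and 21.6%. For the SP/KLF box GGGCGG, 16 of 23 matches of the 8 genes were inside a footprint in replicate 1 (69.6%) and 15 of 19 in replicate 2 (78.9%). Over all genes the shares were 50.8% and 58.6%. Most of the pooled matches came from a few genes. Acaca held 8 in replicate 1 and 4 in replicate 2, Acly 5 in each, and Srebf2 5 and 4. In these peaks Fasn and Scd1 held none in either library, and Scd2 none in replicate 1. Footprints covered 34% and 37.6% of the bases of these peaks at the 8 genes, and 31.8% and 32% over all genes. The counting of matches inside footprints was added after the window counts had been seen.

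GGGCGG itself occurred at 5 of 8 genes in replicate 1 and 6 of 8 in replicate 2, against 68.3% and 69.3% of all genes. The full sterol element TCACNCCAC occurred in none of the 8 strongest windows in either library, against 1.14% and 1.06% of all genes. Its 2 occurrences in promoter peaks of the 8 genes were the one at the outermost Srebf1 start and the one in the inner Fasn peak, described above. The short form TCACNCC occurred at 1 of 8 genes in each library, Srebf2, against 15.8% and 15.7%. Both forms were matched letter for letter, so sterol elements that differ from them would be missed. Their absence from a window thus does not show that it lacks a sterol element. The E-box CACGTG occurred at 1 gene in each, Insig1, against 10.1% and 10.3%. The ETS letters CCGGAAG, common at promoters at 18% and 18.8%, occurred at 0 of the 8 genes. Also at 0 of 8 genes in both libraries were the YY1 letters AAGATGGCG, against 3.52% and 3.67% of all genes, and the CEBP letters TTGCNNAA, against 7.17% and 7.22%. The AP-1 letters TGANTCA were at 0 of 8, against 4.04% and 4.09%. Those read by forkhead (FOX) factors, TGTTTAC, were at 0 of 8, against 2.15% and 2.05%. The TATA box TATAAA was at 0 of 8, against 4.41% and 4.14%. NRF1 letters (GCGCNTGCG) occurred at 1 gene in each library, against 14.6% and 14.9%, and NKX2 letters (CAAGTG) at 1, against 9.91% in both. CTCF letters (CNAGNNGGC) occurred at 2 genes in each, against 34.7% and 34.5%.

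**Figure D5:**
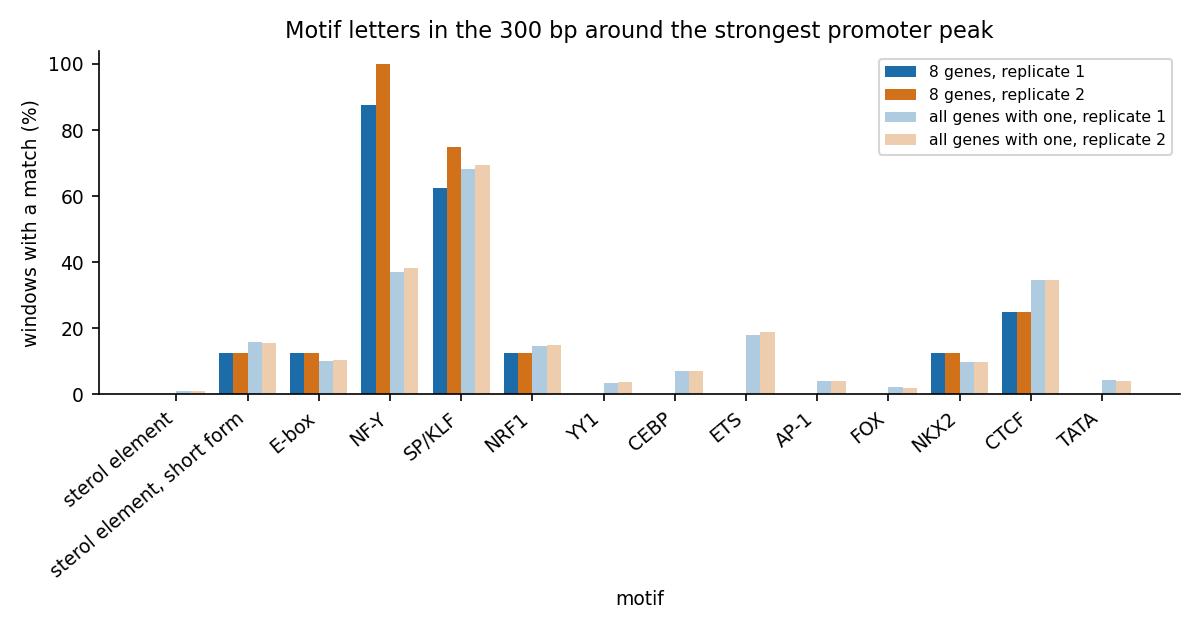
Percent of windows of 300 bp around the strongest promoter peak that hold each motif (y axis), for the 8 genes in full colour and for all genes with a promoter peak in pale colour, by library. The NF-Y box stands at 7 and 8 of 8 genes against 37.1% and 38.4%, and every other motif except the SP/KLF box occurs at 0 to 2 of the 8 genes.

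The same windows were rich in G and C, with a median of 69.5% in replicate 1 and 69.3% in replicate 2 for the 8 genes, against 64% in both libraries for all genes. Scd1 at 56.3% and 57% and Scd2 at 53.3% and 60.3% lay below the all-gene value. The Scd2 window of replicate 1 was at its coding-exon peak. CpG pairs stood at a median of 0.924 and 0.941 of the number that base composition predicts, against 0.795 and 0.8. For CpG, the genes of the 8 below the all-gene median were Scd1 at 0.547 and 0.537, Scd2 at 0.381 and 0.441, and Acly, the highest of the 8 in rank, at 0.55 in both libraries.

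The other genes of the pathway were read from 4 lists of 54 genes in all. A promoter peak was found for 52 of 54 in each library, in each case the same 52, against the 66.6% and 64.1% of all genes given above. Their strongest promoter peaks had a median percentile of 92.7 in replicate 1 and 92.8 in replicate 2, against 89.9 and 89.7 for all genes. By list, the medians were 92.8 and 92 for processing and regulation of the sterol factors, 94.9 and 95 for sterol synthesis and uptake, 91.7 and 89.7 for phosphatidylcholine synthesis, and 88.3 and 90 for fatty acid synthesis. The last was below the median of all genes in replicate 1 and about level with it in replicate 2. Phosphatidylcholine synthesis was above that median in replicate 1 and level with it in replicate 2. Among 8 genes that process or regulate the sterol factors, all had one, and the highest by the mean of both libraries was Nr1h2, an oxysterol receptor, at 98.2 and 97.7. Mbtps1, a protease that cuts the precursors, stood at 98.4 and 96.2, and Scap, which escorts them to that protease, at 98.5 and 95.8. In replicate 1 both ranked above Nr1h2. The lowest of the 8 was Mbtps2, the second protease of the route, at 63.3 and 42.7. Mbtps2 lies on chromosome X and all animals were male, and the part of X copy number in its rank was not tested.

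Among 14 further genes of fatty acid synthesis and desaturation, 12 had a promoter peak in both libraries, and Scd3 and Scd4 had none in either. The highest were Elovl5, a fatty acid elongase, at 99 and 98.3, Acss2, which makes acetyl-CoA from acetate, at 98.4 and 98, and Acacb, the mitochondrial partner of Acaca, at 96 and 96.2. The lowest with a peak were Me1, the cytosolic malic enzyme, at 45.4 and 32.7, Elovl6, another elongase, at 25 and 58.2, and Thrsp, a regulator of fatty acid synthesis in liver, at 61.3 and 40.7. All 21 genes of sterol synthesis and uptake had one, led by Fdft1 at 99.6 and 99.5, Dhcr7 at 99.5 and 99.4 and Mvd at 98.5 and 99.3. All 11 genes of phosphatidylcholine synthesis had one, led by Agpat1, an acyltransferase of the glycerolipid route, at 99.8 and 99.4. Chka, a choline kinase, stood at 97.1 and 96.6, and Lpin1, a phosphatidate phosphatase, at 96.6 and 94. Pcyt1a, which encodes the main form of the choline-phosphate enzyme that sets the pace of this route, stood at 89.6 and 89.5. Its relative Pcyt1b, which like Mbtps2 lies on chromosome X, stood at 15.5 and 21.3. This pair and the low-ranked genes named above were picked after the values had been seen.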

How the data were processed

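DNase-seq of 2 lung libraries of 1 group was read from files deposited by the authors, mapped to mm10 per the labels. Not given in the sources used here were the aligner, the callers of peaks and footprints, their settings and the read counts. Deposited peak lists give a signal value per peak, on a scale the files do not state, so scores served only to rank peaks within a library (mid-rank percentiles). The deposited footprint lists carry the constant p-value threshold 0.01, and the deposited FDR tracks list bases at 0.05 or below. Of 2 peak lists per library, the smaller was used. Starts came from GENCODE M21 and sequence from the RefSeq GRCm38 genome, whose 21 chromosomes compared hold every peak. The RefSeq promoter table used held entries for 6 of the 8 genes.

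All 8 members were described, each with its strongest promoter peak and its 3 highest distal sites found in both libraries, and 3 pathway genes per list, by mean percentile, plus those with no peak. Exceptions picked after their values were seen were Pcyt1a, Pcyt1b, Mbtps2, Me1, Elovl6 and Thrsp. Motifs, on both strands, were counted in 300 bp windows at peak centres. Members, lists and motifs were chosen with earlier results of these data known. Counting was tested on simulated peaks. Python 3.11.15, numpy 2.4.6, pandas 2.3.3, matplotlib 3.10.9 and Biopython 1.88 were used. No test was run, since there was 1 group. Peak lists, windows, flanks, start sets, overlap rules and libraries were varied.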

Additional observations from a re-analysis of the deposited data

How the results depend on the processing

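All 8 genes kept a promoter peak in both libraries under each of the 5 alternatives tried: the larger peak list, windows of 500 and 2500 bp, the outermost start alone and the higher-scoring 50% of peaks. Over all genes, 58.7% had one in both libraries with the outermost start alone. That share is not given here for the other alternatives. With the outermost start alone, the number of promoter peaks over the 8 genes was 13.5 (mean of both libraries, 22 with every start). Other peaks averaged 75 and came to 42.5 with a flank of 20 kb, to 148.5 with 100 kb and to 49 among the higher-scoring 50%, each by construction. The share of member peaks with a partner was 86.7%, and 94.8% when the partner could come from the larger list. Of 24 alternative values of the strongest promoter percentiles, 13 stayed within 1 SD of the libraries and 11 moved further. That SD was as small as 0.0295 for Insig1, so its shift from 98.3 to 98.9 counted as moved. With the larger list the percentile of each of the 8 genes was higher, as for Scd1 at 81.3 against 71.5. These counts therefore say little about how stable the values are. The largest shifts came from the outermost start alone, at 79.6 for Srebf1 and 75.1 for Acaca. Both genes then lay below the all-gene median in both libraries, and Scd2 did in replicate 1. Of 14 motif counts, 10 kept their value and 4 moved in the narrower windows.

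Leaving out either library gave 8 genes with a promoter peak in both cases, 22 promoter peaks, 52 pathway genes, 72 to 78 other peaks, 69 to 86 footprints in promoter peaks, 161 to 207 in other peaks, and partner shares of 84% to 89.4%. No paired analysis was possible because there was 1 group and no contrast. Read depth is unknown, and 2 libraries give no firm estimate of spread.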
